A study of Homo sapiens with 6 samples.

Results

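MYC and the long noncoding RNA genes downstream of it, PVT1 and CCDC26, were followed through the H3K27ac peak lists of 2 human acute myeloid leukemia (AML) cell lines. H3K27ac is the acetylation of histone H3 at lysine 27, a mark of active promoters and enhancers, and it was mapped by CUT&Tag, a method that tethers a transposase to the marked chromatin through an antibody. Peaks were chosen by position: every peak on chromosome 8 from 500 kb before the start of MYC to 2 Mb past its end, chr8:127236231-129742951 on build hg38, was taken. This stretch held 89 peaks in the 4 lists, which merged into 34 of the 34053 regions found over chromosomes 1 to 22, X and Y. The locus was picked from a series whose results were already known, so all its values are descriptions and no test was made on them.

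Of the lines, Kasumi-1 carries the fusion RUNX1::RUNX1T1, and MV4-11 carries a fusion of KMT2A. In each line 1 library came from control cells (NC, labelled untreated, a control hairpin in the study's methods) and 1 from cells with a short hairpin RNA against ANP32B (sh-ANP32B). ANP32B encodes an acidic nuclear phosphoprotein of the ANP32 family, which binds histones. Hairpins were brought in by lentivirus and carrying cells were selected with puromycin. The study had 3 hairpins against ANP32B, and which of them these libraries carried is not given in the sources used here. The 2 IgG libraries, 1 per line, are not analysed here. Each list was called on merged replicates, so there is 1 list per group, no spread between replicates, and differences between lists compare those libraries only.

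MYC encodes a transcription factor that drives growth and division and that many leukemias keep at a high level. Much of its control comes from enhancers spread over the long stretch around it, which differ between tissues. In blood cells an enhancer cluster far downstream, within and around CCDC26, is known to act on MYC, and PVT1, the neighbour of MYC, carries further enhancers and has a promoter that can compete with that of MYC for them. H3K27ac peaks show where the mark was called and not which gene an enhancer serves, and these libraries hold no measure of MYC RNA.

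Line markers did not tell the lines apart as labelled. A peak lay within 2500 bases of the canonical start of all 4 MV4-11 markers (HOXA9, HOXA10, MEIS1 and FLT3) in both Kasumi-1 lists and the MV4-11 NC list and of 3 of them in MV4-11 sh-ANP32B. Of the 4 Kasumi-1 markers, KIT, RUNX1T1 and POU4F1 had no such peak in any list, and CD34 had 180 bases under a peak in Kasumi-1 NC, 132 in its knockdown and 0 in both MV4-11 lists. Of 5 myeloid markers, 3 had a peak in each list but MV4-11 sh-ANP32B, where 2 had one; MPO had none in any list and SPI1 had one in all. CD3E, GATA1 and EPCAM, markers of other cells, had no such peak in any list. Widths at the MV4-11 markers ran against the labels at HOXA9 (4335 and 4707 bases in Kasumi-1, 769 and 659 in MV4-11, NC before knockdown), HOXA10 (5001 and 5001 against 2648 and 1638) and FLT3 (2028 and 2008 against 299 and 0). MEIS1 had 3103 and 3264 against 3337 and 3123. Line names below follow the labels, and so does each comparison between lines. At ANP32B itself the promoter window held 3447, 3432, 3433 and 2631 bases under peaks. Runs of 4 values, here and below, give Kasumi-1 first and MV4-11 last, and within each line NC before sh-ANP32B. This mark does not measure the knockdown.

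The 4 lists held 22768, 23878, 24523 and 22136 peaks in all, of which 23, 23, 20 and 23 were in the MYC locus. Read totals and peak heights are not in the lists, so depth is unknown, and presence and width of peaks are the measurements. The locus peaks covered 23164, 26770, 33665 and 28824 bases, or 0.924% to 1.34% of the stretch. Covered bases in sh-ANP32B relative to NC were 1.16 in Kasumi-1 and 0.856 in MV4-11. Over all chromosomes the same ratios were 1.03 and 0.825, and on chromosome 8 outside the locus 1.02 and 0.856. At these settings the locus of MV4-11 had nearly the same ratio as the rest of its chromosome, and that of Kasumi-1 a higher one. With peaks of at least 1000 bases the locus ratio was 1.36 in Kasumi-1 and 0.736 in MV4-11. With peaks at most 1000 bases apart joined it was 1.16 and 0.932. The rest of the chromosome was not recomputed for these alternatives. Median locus peak widths were 618, 674, 1083 and 602 bases, against 1044, 980, 815 and 742 bases over all peaks. Peaks of at least 1000 bases made up 21.7%, 26.1%, 55% and 30.4% of the locus peaks, against 52.0%, 49.2%, 39.8% and 35.3% of all peaks. Only in MV4-11 NC was the locus share above that of the whole list.

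Peaks were unevenly spread along the locus. No list had a peak in the 498658 bases before chr8:127734889, and none had one in the 1017157 bases of chr8:128251820-129268976, which reach from 516 to 1533 kb past the MYC start and include most of the stretch between PVT1 and CCDC26 and the downstream part of CCDC26. CCDC26 held most of the covered bases, 59.4%, 59.4%, 78.8% and 74.1% of the locus total. The ends of the stretch were set by distance. The nearest peaks inside its upper end lay 63.2 to 75.3 kb from it and were 295 to 3601 bases wide, and the nearest outside lay 146 to 197 kb past it and were 346 to 966 bases wide. At the lower end the nearest peaks inside were those at or just past MYC, and the nearest outside were 746 to 1336 bases wide, 1628 kb away in both Kasumi-1 lists and 12.9 to 13.0 kb away in the MV4-11 lists.

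**Figure D1:**
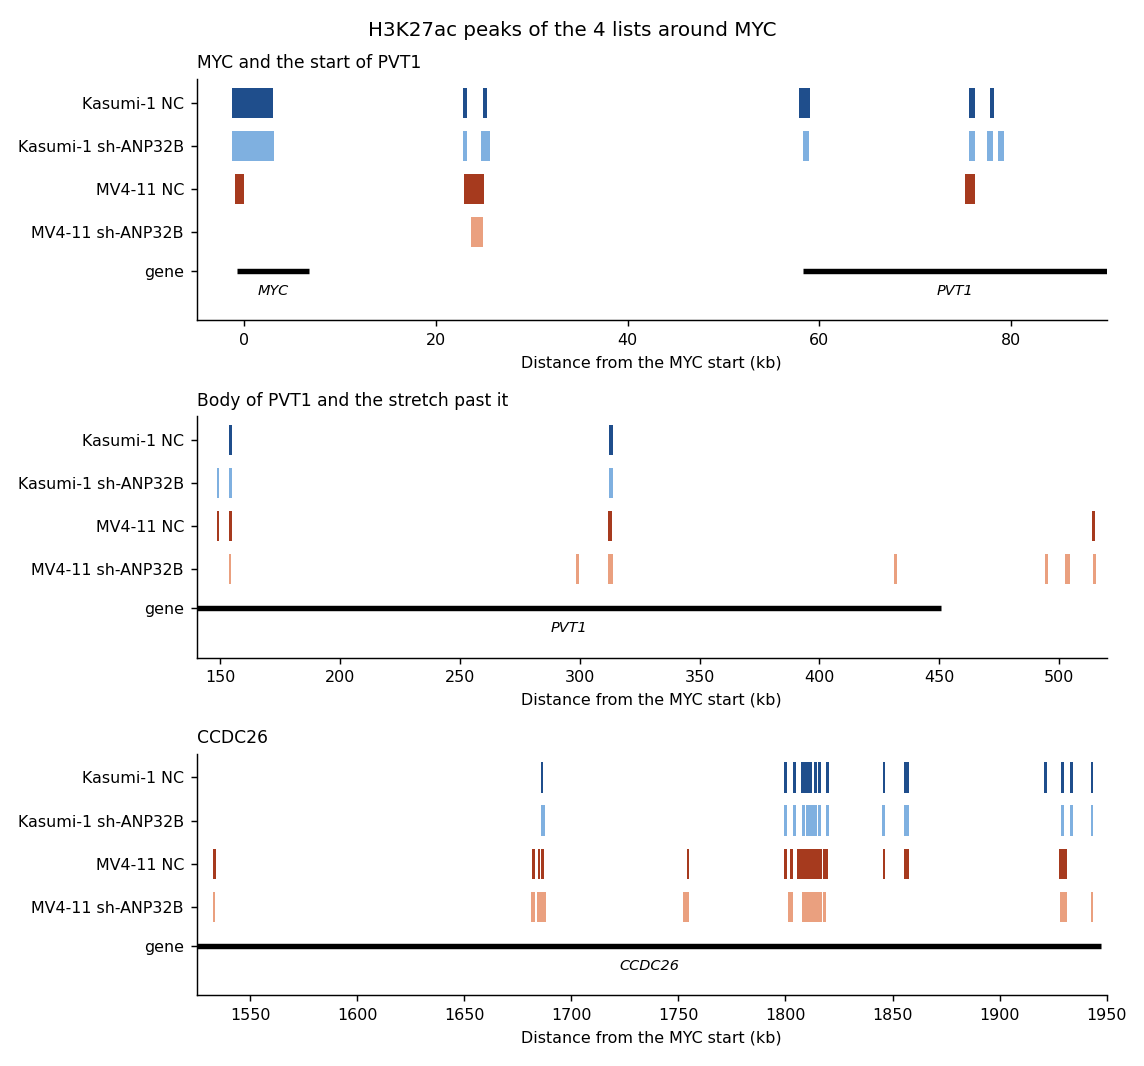
Position of every locus peak in the 4 lists (rows) by distance from the MYC start in kb (horizontal axis), in 3 stretches, with the genes as black lines. Peaks narrower than 0.285, 1.14 and 1.28 kb are drawn at that width in the top, middle and bottom panel. Kasumi-1 has a peak over the MYC start in both lists, MV4-11 has one just before the start in NC and none in the knockdown, and the densest group is within CCDC26 near 1812 kb.

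MYC (ENSG00000136997.22, chr8:127735434-127742951, plus strand, canonical start 127736231) had a wide promoter peak in both Kasumi-1 lists, a narrower one in MV4-11 NC and none in MV4-11 sh-ANP32B. Within 2500 bases of its start, 3828, 3843, 893 and 0 bases lay under peaks. The peak of Kasumi-1 NC was chr8:127734904-127739214, 4311 bases wide and at percentile 96.4 of the widths of its list. In Kasumi-1 sh-ANP32B it was chr8:127734889-127739354, 4466 bases wide and at percentile 96.6. Both covered exons 1 and 2 of MYC, all 14 annotated MYC starts and the start of CASC11, a long noncoding RNA gene read in the opposite direction, whose share of the mark cannot be told apart from that of MYC. The peak of Kasumi-1 was thus 155 bases wider after knockdown, 15 at its left edge and 140 at its right.

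In MV4-11 NC the MYC peak was chr8:127735260-127736152, 893 bases wide and at percentile 54.6 of its list. It ended before the canonical start but covered 6 of the 14 annotated starts. No peak overlapped it in MV4-11 sh-ANP32B, where the nearest peak was 23693 bases away. Loss of a promoter peak was common in this line: of protein-coding genes with a promoter peak in MV4-11 NC, 24.4% had none after knockdown and 81.6% had fewer bases under promoter peaks. Of 4186 such genes with at least 893 bases, 351 (8.39%) lost them all, and MYC was among these. In Kasumi-1 the corresponding shares were 6.84% lost and 50.8% with fewer bases. Whether MYC transcripts fell with the peak is not measured here.

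By the sum of differences over the 4 lists, the genes whose promoter windows were most like that of MYC among 38899 genes were ENSG00000263727, a long noncoding RNA gene, MUS81, which encodes a DNA repair endonuclease subunit, and TYMS, which encodes thymidylate synthase. ENSG00000263727 had 3690, 3772, 952 and 0 bases, a summed difference of 268 from MYC. MUS81 had 3787, 3820, 673 and 0 bases, a summed difference of 284, and TYMS had 3804, 4137, 952 and 0 bases, a summed difference of 377. ENSG00000263727 and TYMS start close to each other on chromosome 18 and their windows share bases. All 3 had many bases under Kasumi-1 peaks, fewer in MV4-11 NC and none in MV4-11 sh-ANP32B, the pattern for which they were chosen.

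The space between MYC and PVT1 held 1 region, chr8:127758996-127761821, 23 to 25 kb past the MYC start, with 965, 1354, 2120 and 1281 bases under peaks. It was present in all 4 lists, and its changes went opposite ways. In MV4-11 NC it was a single peak of 2120 bases, and after knockdown a peak of 1281 bases (log2 width ratio -0.73), with its left edge shifted by -743 bases and its right edge by -96, where a negative shift is inward. In Kasumi-1 it was a pair of peaks. The left one was 492 bases in NC and 506 in sh-ANP32B, and the right one was 473 and 848 bases (log2 width ratio 0.84).

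PVT1 (ENSG00000249859.14, chr8:127794526-128187101, plus strand) hosts a group of microRNAs. It had a peak over its canonical start only in Kasumi-1. This peak was chr8:127794133-127795249 in NC, 1117 bases, and chr8:127794517-127795200 in sh-ANP32B, 684 bases, with shifts of -384 bases at the left edge and -49 at the right. Both MV4-11 lists had 0 bases in the PVT1 promoter window. PVT1 has many annotated starts, and of the 132 a peak covered 47, 45, 14 and 14.

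Inside PVT1 the widest region lay in intron 4 at chr8:128048045-128050055, 313 kb past the MYC start, where it covers the microRNA gene MIR1207. It had 1531, 1596, 1531 and 1933 bases, so it was slightly wider after knockdown in both lines. A second region in all 4 lists, chr8:127889909-127890551 in intron 2, had 450, 442, 442 and 562 bases. Closer to MYC, an intron 2 region at chr8:127811394-127812514, 76 kb past the MYC start, had 618, 674, 1057 and 0 bases. This one was lost in MV4-11 and kept in Kasumi-1. Beside it, chr8:127813687-127814453 had peaks of 424 and 660 bases in Kasumi-1 alone, and chr8:127814888-127815469 appeared only in Kasumi-1 sh-ANP32B, with 582 bases. A region near 149 kb was called in the Kasumi-1 knockdown (401 bases) and the MV4-11 control (407 bases) and in neither other list.

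Summed over PVT1, peaks covered 4140, 5039, 3437 and 3770 bases, so the gene had more bases after knockdown in both lines, by 899 in Kasumi-1 and by 333 in MV4-11. In MV4-11 the sum was made of losses nearer the start of the gene and of wider and gained peaks farther in. The gains were chr8:128034973-128035537 in intron 4, 565 bases, and chr8:128167665-128168374 in intron 10, 710 bases, each in MV4-11 sh-ANP32B alone.

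Between PVT1 and CCDC26, no peak was called in Kasumi-1. MV4-11 NC had 1 peak there, chr8:128250485-128251181, of 697 bases, 515 kb past the MYC start. After knockdown the overlapping peak was 1286 bases wide (log2 width ratio 0.88), with 638 bases added at its right edge. Before it, 3 narrow peaks of 326, 388 and 428 bases were present in MV4-11 sh-ANP32B alone. Covered bases of MV4-11 in this stretch were 697 in NC and 2428 after knockdown.

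CCDC26 (ENSG00000229140.12, chr8:128634199-129683770, minus strand, canonical start 129575015) had no peak within 2500 bases of its canonical start in any list. Of its 76 annotated starts a peak covered 2, 2, 1 and 2. Its peaks were inside the gene, 15, 13, 13 and 14 of them, and they covered 13748, 15911, 26518 and 21345 bases. All but those of a lone region in intron 4 lay more than 1681 kb past the MYC start, in introns 1 and 2 of the canonical transcript or before its start.

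The region with the most bases under peaks in every list lay in intron 1, chr8:129543685-129553317, 1812 kb past the MYC start, with 5712, 7583, 9597 and 9544 bases. In MV4-11 it was a single peak, chr8:129543685-129553281 in NC and chr8:129543774-129553317 in sh-ANP32B. These were 9597 and 9544 bases wide, at percentile 99.9 of the widths of either list, and their log2 width ratio was -0.01. The widest MV4-11 peak of the locus thus kept its width after knockdown, and the promoter peak of MYC was no longer called. These peaks differed in width as well as in place. Of all MV4-11 NC peaks 29.1% were lost. Of those at least 893 bases wide, the width of the MYC peak, 7.40% were lost, and of those at least 1000 bases wide 5.77%. The part of width in this contrast was not tested. In Kasumi-1 the intron 1 region was broken into 5 peaks in NC, the widest of 2761 bases, and into 3 in sh-ANP32B, the widest of 5201 bases. The latter spanned the NC peaks of 2761 and 961 bases and the space between them, and another of 1649 bases joined NC peaks of 425 and 666 bases.

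On either side of this region the MV4-11 lists differed. To its left, a peak of 1519 bases at chr8:129541835-129543353 was in MV4-11 NC only, 420 bases from the nearest sh-ANP32B peak. To its right, chr8:129553681-129556056 had 459, 435, 2235 and 1245 bases, and the right edge of the MV4-11 peak had shifted by -981 bases (log2 width ratio -0.84). Farther left, chr8:129535702-129536656 had 955, 952, 362 and 0 bases.

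The widest peak lost from the locus lay before the canonical start of CCDC26, 1857 kb past the MYC start. The region chr8:129591392-129594101 had 2599, 2530, 2528 and 0 bases. In the first 3 lists the widths differed by under 100 bases, and in MV4-11 sh-ANP32B the nearest peak was 36457 bases away. Of 1908 MV4-11 NC peaks at least 2528 bases wide, 14 (0.734%) had no overlapping peak after knockdown. The limit was the width of this peak, which was picked as the widest lost one, so the share is a description only. The neighbouring region at chr8:129581805-129582699 was also lost in MV4-11, with 563, 437, 895 and 0 bases. Farther from MYC, still inside the annotated CCDC26 gene, chr8:129664064-129667664 had 862, 1305, 3601 and 3373 bases and was held by all 4 lists.

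Another group of CCDC26 peaks, in intron 2 near 1685 kb, belonged mostly to MV4-11. The region chr8:129417536-129419166 had 1109 bases in MV4-11 NC and 1631 in sh-ANP32B, and chr8:129420317-129421845 had 1146 and 1133, the latter in 2 peaks. Neither had a peak in Kasumi-1. Next to them, chr8:129422294-129423968 was in all 4 lists with 456, 842, 998 and 1160 bases. None of the 3 was lost in MV4-11. The lone region in intron 4, chr8:129268977-129270103, had 1127 and 951 bases in MV4-11 and none in Kasumi-1.

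**Figure D2:**
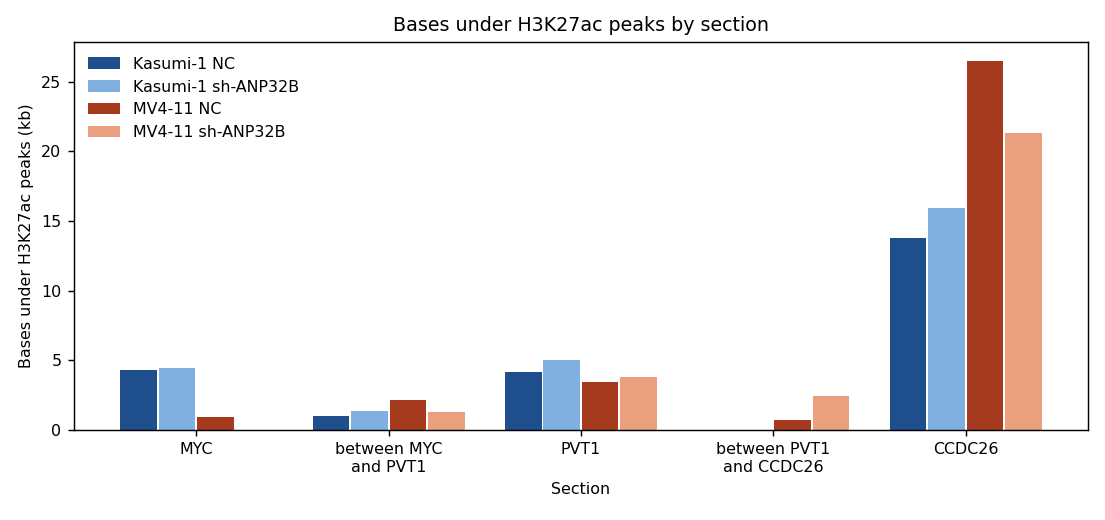
Bases under H3K27ac peaks (vertical axis, kb) in each section of the locus (horizontal axis), 1 bar for each of the 4 lists, with no error since each group had 1 list. CCDC26 had 13748, 15911, 26518 and 21345 bases, more than any other section in every list, and the MYC bar is missing for MV4-11 sh-ANP32B.

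By the lists that held them, 7 of the 34 regions (20.6%) were in all 4 lists, against 32.2% of all regions. Another 4 (11.8%) were in both Kasumi-1 lists only, against 14.1%, and 6 (17.6%) in both MV4-11 lists only, against 12.4%. The latter were all past the end of PVT1, 4 of them described above with the intron 2 group, the intron 4 region and the stretch between the genes, and the other two, in intron 1 of CCDC26, were 278 to 969 bases wide. Regions in every list but MV4-11 sh-ANP32B numbered 5 (14.7%, against 7.73%), and those in MV4-11 sh-ANP32B alone 7 (20.6%, against 7.67%). The 5 were the MYC promoter, 1 region in PVT1 and 3 in CCDC26. None of the 34 was held by both NC lists only (0.552% of all regions) or by both sh-ANP32B lists only (0.373%).

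Counted as peaks, MV4-11 lost 7 of 20 NC peaks of the locus (35%, Wilson 95% interval 18.1 to 56.7, which covers counting error only), near the 29.1% of all NC peaks of that list. They were 362 to 2528 bases wide, with a median of 895. It gained 8 of 23 sh-ANP32B peaks (34.8%, 18.8 to 55.1), and the share over all chromosomes was 17.7%. With 1 common minimum width and joining gap for all lists the gained peaks numbered 6. The gained peaks were narrow, 295 to 710 bases, with a median of 386.5. With peaks of at least 1000 bases, 3 of 11 were lost (5.77% of all such peaks) and 0 of 7 gained (1.77%). At 2000 bases or more, 1 of 5 was lost (0.903%). The intervals here and below treat peaks as independent, which neighbouring peaks may not be, so they are no test against the shares over all chromosomes.

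Of the 7 peaks that MV4-11 lost, 5 overlapped a peak in both Kasumi-1 lists, while this held for 47.6% of lost MV4-11 peaks over all chromosomes. Of the 8 gained, 7 overlapped none in either Kasumi-1 list, against 66.8% of all gained MV4-11 peaks. With so few peaks these shares are a description only.

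Kasumi-1 changed less. It lost 1 of 23 NC peaks (4.35%, 0.772 to 21.0), against 9.00% of all, and gained 3 of 23 (13.0%, 4.54 to 32.1), against 13.2%. The lost peak, chr8:129657547-129657950 in CCDC26, was 404 bases wide, and the gained ones were 401, 427 and 582 bases. No locus peak of at least 1000 bases was lost, of 5 (1.26% of all such peaks), or gained, of 6 (0.750%).

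**Figure D3:**
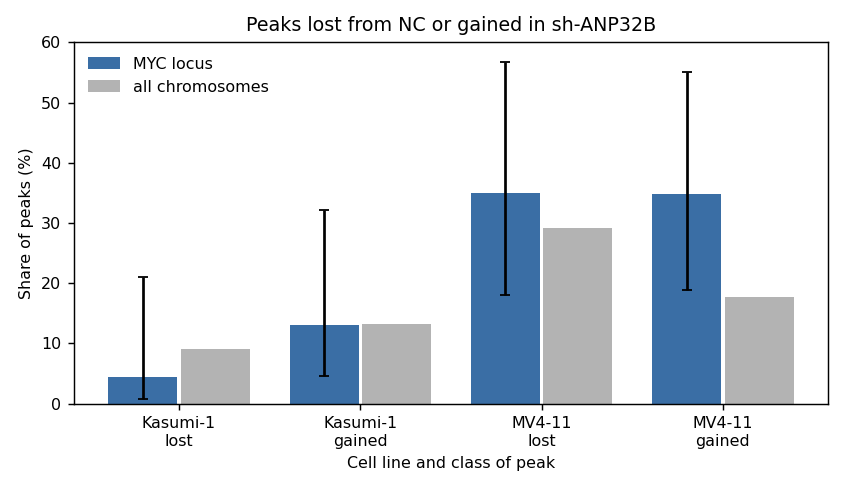
Share of peaks (vertical axis, percent) lost from NC or gained in sh-ANP32B in each line, in the MYC locus (blue) and over all chromosomes (grey). Wilson 95% intervals on the locus bars cover counting error only and treat peaks as independent. The MV4-11 gained bars are farthest apart, 34.8% in the locus and 17.7% over all chromosomes, and the Kasumi-1 gained bars are nearly level, 13.0% and 13.2%.

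Widths were compared between peaks matched 1 to 1 within a line. In Kasumi-1, 18 locus pairs had a median log2 width ratio of 0.018 (all pairs 0.029) and ran from -0.71 to 0.84. Of them 9 were narrower after knockdown, 50%, against 40.5% of all pairs. The narrowest for its NC width was the PVT1 promoter peak and the widest the right peak between MYC and PVT1. In MV4-11, 11 pairs had a median of -0.0080 (all pairs -0.14) and ran from -0.88 to 0.88, with 6 narrower, 54.5%, against 63.4%. A change past 1.5-fold was seen in 4 of 18 pairs in Kasumi-1 (11.6% of all pairs) and in 4 of 11 in MV4-11 (30.8% of all pairs).

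**Figure D4:**
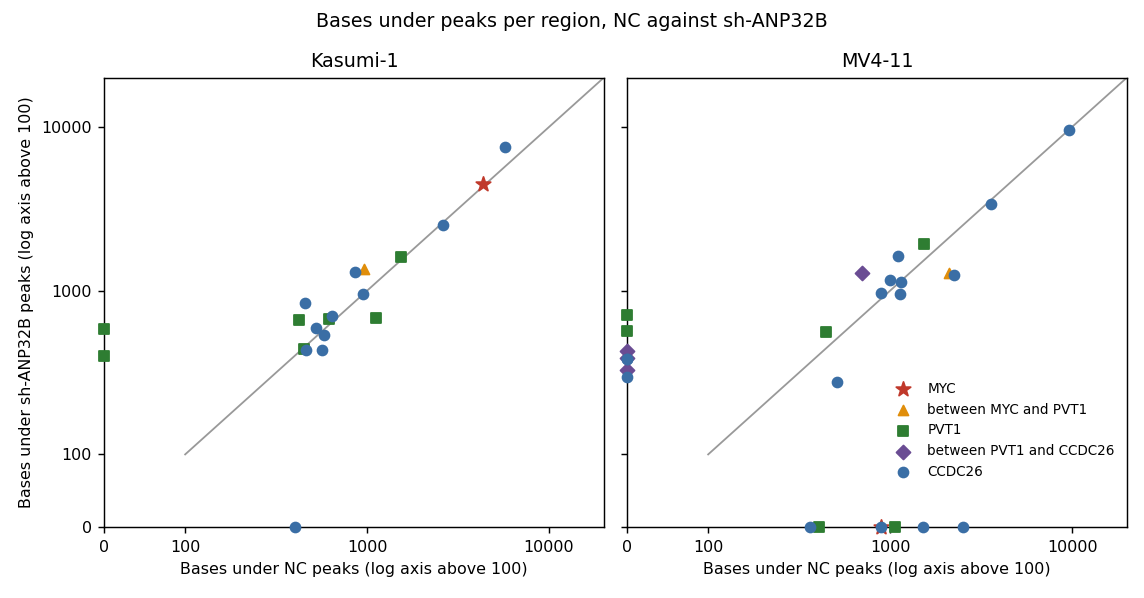
Bases under peaks in each locus region in NC (horizontal axis) and sh-ANP32B (vertical axis), on log axes above 100, for Kasumi-1 (left) and MV4-11 (right), with symbols for the section and a line of equal values. Points on the lower edge had no peak after knockdown: 1 region in Kasumi-1, and 7 in MV4-11, among them MYC at 893 bases and a CCDC26 region at 2528.

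The lines were also compared without knockdown. Of the Kasumi-1 NC locus peaks, 17 of 23 (73.9%, 53.5 to 87.5) overlapped a MV4-11 NC peak, against 67.0% of all Kasumi-1 NC peaks. Of the MV4-11 NC locus peaks, 12 of 20 (60%, 38.7 to 78.1) overlapped a Kasumi-1 NC peak, against 65.2%. Shared peaks differed in extent: the bases covered in both over the bases covered in either, the Jaccard index, were 0.328 between the NC lists in the locus (0.396 over all chromosomes). It was 0.765 within Kasumi-1 (0.783) and 0.564 within MV4-11 (0.582). At MYC itself the Kasumi-1 NC peak was the wider one, 4311 against 893 bases, while in CCDC26 MV4-11 NC covered more, 26518 against 13748 bases.

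Peaks not wholly inside the promoter window of a protein-coding gene were joined where at most 12500 bases apart, as in super-enhancer calling, and domains were ranked in each list by summed peak width. The first of the locus in every list was the CCDC26 intron 1 cluster. In Kasumi-1 it ranked 580 of 7685 domains in NC (7649 bases in 8 peaks) and 434 of 8081 in sh-ANP32B (9558 bases in 6 peaks). In MV4-11 it ranked 111 of 9990 (14604 bases in 5 peaks) and 130 of 9268 (12143 bases in 4 peaks). It therefore stood higher in MV4-11 than in Kasumi-1 with or without knockdown.

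In Kasumi-1 the MYC promoter peak ran past the downstream end of its window and so was kept. It was the second domain there, at rank 1338 in NC and 1379 in sh-ANP32B. The third in Kasumi-1 was the domain of the peaks before the canonical CCDC26 start, chr8:129581907-129594101 in NC, at rank 1927 in NC and 2235 in sh-ANP32B. In MV4-11 NC that domain had rank 1591, after the peak of 3601 bases at chr8:129664064-129667664 with rank 1476, and in MV4-11 sh-ANP32B it was absent. There the second was the intron 2 group of CCDC26, at rank 1063, and the third was chr8:129664220-129679467, at rank 1180. MV4-11 sh-ANP32B also had a domain of 4 peaks and 2428 bases between PVT1 and CCDC26, at rank 2046.

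Other annotated genes of the stretch were mostly without peaks. Apart from CASC11, MIR1207 and ENSG00000253926, a long noncoding RNA gene that overlaps CCDC26 intron 2 and held 1, 2, 3 and 5 peaks, none of the others lay under a peak in any list. Among them were PCAT1, CASC8, POU5F1B and CCAT2 before MYC, the microRNA genes MIR1204, MIR1205, MIR1206 and MIR1208 in PVT1, and LINC00824 between PVT1 and CCDC26.

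The reference bases under the peaks differed along the locus. The MYC region was 59.6% GC with an observed to expected CpG ratio of 0.75, and the PVT1 promoter region was 64.3% GC with a ratio of 0.79. The wide CCDC26 region in intron 1 was 40.3% GC with a ratio of 0.13, and the lone region in intron 4 was 32.8% GC. Median GC of the locus peaks was 50.6%, 50.7%, 44.5% and 42.5%, below the 55.4%, 54.4%, 51.3% and 50.9% of all peaks of the same lists. In MV4-11 the lost locus peaks had a median GC of 47.8% and the kept ones 41.8%, against 51.7% and 51.2% over all chromosomes. The part of base composition in these losses was not tested.

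Short motifs were counted on both strands in the central 400 bases of each region. GAGGAA, the core bound by PU.1, was in 14 of 34 locus regions (37.2% of all regions), TGTGGT, the RUNX core, in 8 (26.5%), TGANTCA, bound by AP-1, in 8 (14.6%) and AGATAA, bound by GATA factors, in 7 (14.3%). CACGTG, the E-box that MYC and MAX bind, was in 0 of 34 (7.28%). Centred on the peaks of each list instead, it was in 1 of 23 in Kasumi-1 NC, 1 of 23 in Kasumi-1 sh-ANP32B and 0 in both MV4-11 lists. A match is a string of letters and not a bound site. No sequence of the locus is printed here.

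The partners and relatives of MYC in the MYC and MAX network were taken as a list of 12 genes. In Kasumi-1, 6 had a promoter peak in NC, of which 0 were lost (6.84% over all protein-coding genes), 3 had fewer bases after knockdown (50.8%) and 3 more. In MV4-11, 4 had one, of which 0 were lost (24.4%) and 4 had fewer bases (81.6%), and 1 gene gained a peak. With so few genes these counts are a description only. MAX, the obligate partner of MYC, had 1626, 1591, 963 and 726 bases. MNT, a repressor that competes for MAX, had 4158, 4222, 3193 and 2881. MLX, a MAX-like partner, had 3175, 3348, 1249 and 1198, and MXD3, a MAX-binding repressor, had 4264, 4401, 477 and 368.

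These 4 genes kept a promoter peak in MV4-11 sh-ANP32B, where MYC had none. MXD1, a further repressor, had 0, 0, 0 and 403 bases. MLXIP, which pairs with MLX, had 2857, 1146, 0 and 0, and MXD4 had 585, 489, 0 and 0. The MYC relatives MYCN and MYCL, and MGA, MLXIPL and MXI1, had no promoter peak in any list.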

How the data were processed

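H3K27ac CUT&Tag peak lists of 4 libraries were used, 1 per group, with groups taken from the labels. According to the study's methods, the authors aligned reads to hg38 with Bowtie2 v2.2.5, removed duplicates with Picard, merged replicates with samtools v1.15.1 and called peaks (MACS2 v2.2.7, q-value 0.01). The submitters' processing notes name Bowtie2 2.4.4 and MACS3 3.0 instead, and the difference could not be settled. Use of IgG as the calling control is not stated. The deposited lists give start, end and length in bases, counted from 1, and no read count, height or q-value. The smallest peak was 275 to 357 bases wide by list, so the caller's minimum width may have differed between lists.

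The members, gene lists and comparisons were chosen with earlier results of these data known. Overlaps were computed in Python 3.11.15 with pandas 2.3.3 and numpy 2.4.6 and checked on simulated data. Genes are GENCODE v44, with promoter windows of 2500 bases to each side of the canonical start. Peaks were assigned to MYC, PVT1 or CCDC26 where at least 1 base overlapped the gene or its window, and otherwise to the stretch between. A peak was lost or gained where no base overlapped the other list of its line, and regions are the union of the 4 lists. Widths were compared between peaks matched 1 to 1. Each of the 195 sequence names in the lists matched the reference, and 0 peaks ran past an end.

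Named were the peaks at the 3 promoters, the 3 widest peaks, lost peaks, gained peaks and domains, regions of at least 1000 bases held by all 4 lists or by both lists of only 1 line, the 3 genes most like MYC, the network genes and ANP32B; other locus peaks were described after their values were seen. Alternatives were another overlap, window, minimum width, joining gap and locus end. No value has a replicate error, since replicates had been merged. One further marker gene that had been looked up is not reported here.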

Additional observations from a re-analysis of the deposited data

Results flagged for a closer look

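Several values moved in opposite directions in the lines after ANP32B knockdown, and each rests on 1 library per group, so none of these differences between lines was tested. Covered bases of the whole locus relative to NC were 1.16 in Kasumi-1 and 0.856 in MV4-11, but with the locus ending 1 Mb past MYC the MV4-11 ratio was 1.05, above 1 as in Kasumi-1. At MYC the bases under peaks differed by 155 in Kasumi-1 and by -893 in MV4-11 (sh-ANP32B minus NC). Between MYC and PVT1 they differed by 389 and -839, and in CCDC26 by 2163 and -5173, in the same order. PVT1, by contrast, had more bases after knockdown in both lines. Covered bases over all chromosomes also went opposite ways, with ratios of 1.03 and 0.825.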

How the results depend on the processing

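No paired analysis was possible because each group had 1 library. Of 74 alternatives to 31 results, 55 counted as the same, 16 moved the value and 3 turned its direction. For most results the same meant within 1.5-fold of the main value. The 55 include promoter windows with 0 bases, which a smaller window could only leave at 0. Apart from alternatives that redefine a quantity, the cause of a change was not tested. The MV4-11 ratio of covered bases was 1.05 when the locus ended 1 Mb past MYC. It was also 1.05 for the bases outside CCDC26, an alternative added after seeing the data. Both alternatives keep the same peaks, so they give a single value. By section, MV4-11 bases after knockdown differed by -893 at MYC, -839 between MYC and PVT1 and -5173 in CCDC26. They differed by 333 in PVT1 and by 1731 between PVT1 and CCDC26. The largest fall was thus in CCDC26, but it was not the only one. The MV4-11 median log2 width ratio was 0.013 with minimum width and joining gap set to 357 bases in every list. With an overlap of at least 50% of both peaks, Kasumi-1 lost 5 peaks and gained 5, 21.7% of Kasumi-1 NC peaks were found in MV4-11 NC and 25% in the reverse. With peaks of at least 1000 bases, Kasumi-1 lost 0 and gained 0, and MV4-11 lost 3 and gained 0. When a peak within 500 bases counted as kept, Kasumi-1 gained 1. A window of 1000 bases at MYC held 2001 bases in Kasumi-1 NC and 2001 in sh-ANP32B, so the difference in Kasumi-1 was outside it. With peaks of at least 500 bases, regions in all 4 lists numbered 3, those in every list but MV4-11 sh-ANP32B 3 and those in MV4-11 sh-ANP32B alone 3. Joining at most 5000 bases put the highest domain at rank 50 in MV4-11 NC and 65 in sh-ANP32B. Depth is unknown, so a peak absent from a list may have been below the caller's threshold.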
